A study of Mus musculus with 6 samples.

Results

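The 10 genes described here, Cdh5, Flt1, Tek, Pecam1, Kdr, Cldn5, Tie1, Egfl7, Esam and Cavin2, are genes of endothelial cells, the cells that line blood vessels. They were measured by RNA sequencing of bulk samples labelled as retinal ganglion cells of the mouse, the output neurons of the retina, and all 10 were among the 22413 genes of the count table. They were selected on counts of these same 6 libraries, namely their high level in control 3 and the zero counts of Cavin2 in the other genotype. The levels and the comparison of genotypes are therefore a description of these libraries, with no test on the listed genes. The first group, called Cre, holds 3 samples of ganglion cells from adult Tgfbr1flx/flx;Vglut2Cre/+ mice. The second, called control, holds 3 samples from adult Tgfbr1flx/flx;Vglut2+/+ mice. Both groups carry 2 floxed copies of Tgfbr1, a signalling receptor for TGF-beta ligands. They differ by the Cre allele, which is driven by the gene for the vesicular glutamate transporter VGLUT2 (Slc17a6), a gene of glutamatergic neurons and not a vascular promoter. The labels do not state whether a sample was 1 mouse or a pool, nor how the cells were isolated, so any spread between samples may be technical.

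Endothelial cells form the inner wall of retinal vessels and, with pericytes and glia, the blood-retina barrier. Their identity rests on receptors for vascular endothelial growth factor (VEGF) and angiopoietin and on adhesion proteins of the cell junctions. Such genes have no established role as markers of ganglion cells, and in RNA from ganglion cells they are commonly read as a sign of vascular cells in the sample. In bulk RNA, fewer cells of a type and less RNA per cell cannot be told apart.

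Promoters of endothelial genes are commonly bound by ETS transcription factors, which recognise the core GGAA. RefSeq promoter sequences of GRCm38.p6, from 250 bases before to 50 after a transcript start, were matched for 7 of the 10 genes, with 9 starts in all. GGAA or its reverse complement TTCC was found in 8 of these 9 windows, against 96.0% of all 32851 promoters of the same length, so its presence alone sets nothing apart. The longer AGGAAG, which contains GGAA, was found on either strand in 5 of the 9, against 35.4% of all promoters. The 9 windows are not separate genes, since 3 are starts of Egfl7, which gave more than 1 of those 5. The Tie1 window held 9 matches to GGAA, where the median promoter held 3, and those of Kdr and Cavin2 held 5 each. These 3 promoters are shown because Tie1 and Kdr were detected in the same libraries, whereas Cavin2 had the most different pattern. Each is printed 5′ to 3′ on the strand of its gene, with the matches to GGAA or TTCC in capitals. The Tie1 window is chr4:118489800-118490099 (minus strand), the Kdr window chr5:75978406-75978705 (minus strand) and the Cavin2 window chr1:51288876-51289175 (plus strand).
Tie1: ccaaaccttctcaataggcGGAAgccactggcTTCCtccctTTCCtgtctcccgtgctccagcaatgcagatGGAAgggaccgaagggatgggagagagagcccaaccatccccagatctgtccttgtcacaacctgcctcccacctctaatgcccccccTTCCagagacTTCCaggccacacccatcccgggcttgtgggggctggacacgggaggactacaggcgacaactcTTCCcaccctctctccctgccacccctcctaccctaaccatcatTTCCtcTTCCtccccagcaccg
Kdr: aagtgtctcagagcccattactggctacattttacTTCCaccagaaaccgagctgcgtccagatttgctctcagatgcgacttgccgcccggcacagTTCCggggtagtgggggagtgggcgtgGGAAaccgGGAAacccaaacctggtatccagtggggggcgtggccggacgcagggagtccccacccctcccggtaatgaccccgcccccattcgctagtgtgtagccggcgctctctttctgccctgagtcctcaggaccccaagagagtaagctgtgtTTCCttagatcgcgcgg
Cavin2: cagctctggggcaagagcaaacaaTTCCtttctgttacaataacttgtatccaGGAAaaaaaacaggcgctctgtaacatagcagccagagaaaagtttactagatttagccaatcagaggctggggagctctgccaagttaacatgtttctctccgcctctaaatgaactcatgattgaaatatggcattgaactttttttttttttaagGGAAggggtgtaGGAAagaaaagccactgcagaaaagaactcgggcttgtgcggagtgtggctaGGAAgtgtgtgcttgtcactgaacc
A match is a description of letters and not a bound site.

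The 6 libraries held 7486359 to 21126291 counts and differed in ways that bear on every value here. Genes with at least 10 counts, called detected, numbered 6738, 7209 and 5790 in Cre 1, 2 and 3 and 4258, 4463 and 4863 in controls 1, 2 and 3. Of 11977 genes detected in some library, 32.7% were detected in 1 library only and 9.99% in all 6. The targeted gene Tgfbr1 had 46, 0 and 793 counts in Cre 1, 2 and 3, against 1, 0 and 1538 in controls 1, 2 and 3. Its counts cover the whole gene and so do not check the deletion. Slc17a6 had 5904, 13948 and 2101 counts in the Cre libraries, against 13572, 3498 and 0 in the controls. Control 3, which had no Slc17a6 count, is given apart below.

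Summed over the 10 genes, counts scaled to the library total (CPM) were 213, 216 and 741 in Cre 1, 2 and 3, against 228, 160 and 5825 in controls 1, 2 and 3. Control 3 stood 7.86 times above the next library, Cre 3 (95% counting interval 7.66 to 8.07). The Cre range lay inside the control range. Cre 1, Cre 2, control 1 and control 2 lay within 160 to 228 CPM, and Cre 3 lay above those 4. The listed genes made up 0.582% of all counts in control 3 and 0.0160% to 0.0741% in the other libraries. All 10 were detected in control 3, against 4 in control 1 and 2 in control 2, and 3, 5 and 7 were detected in Cre 1, 2 and 3. None of the 10 was detected in all 6 libraries.

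**Figure D1:**
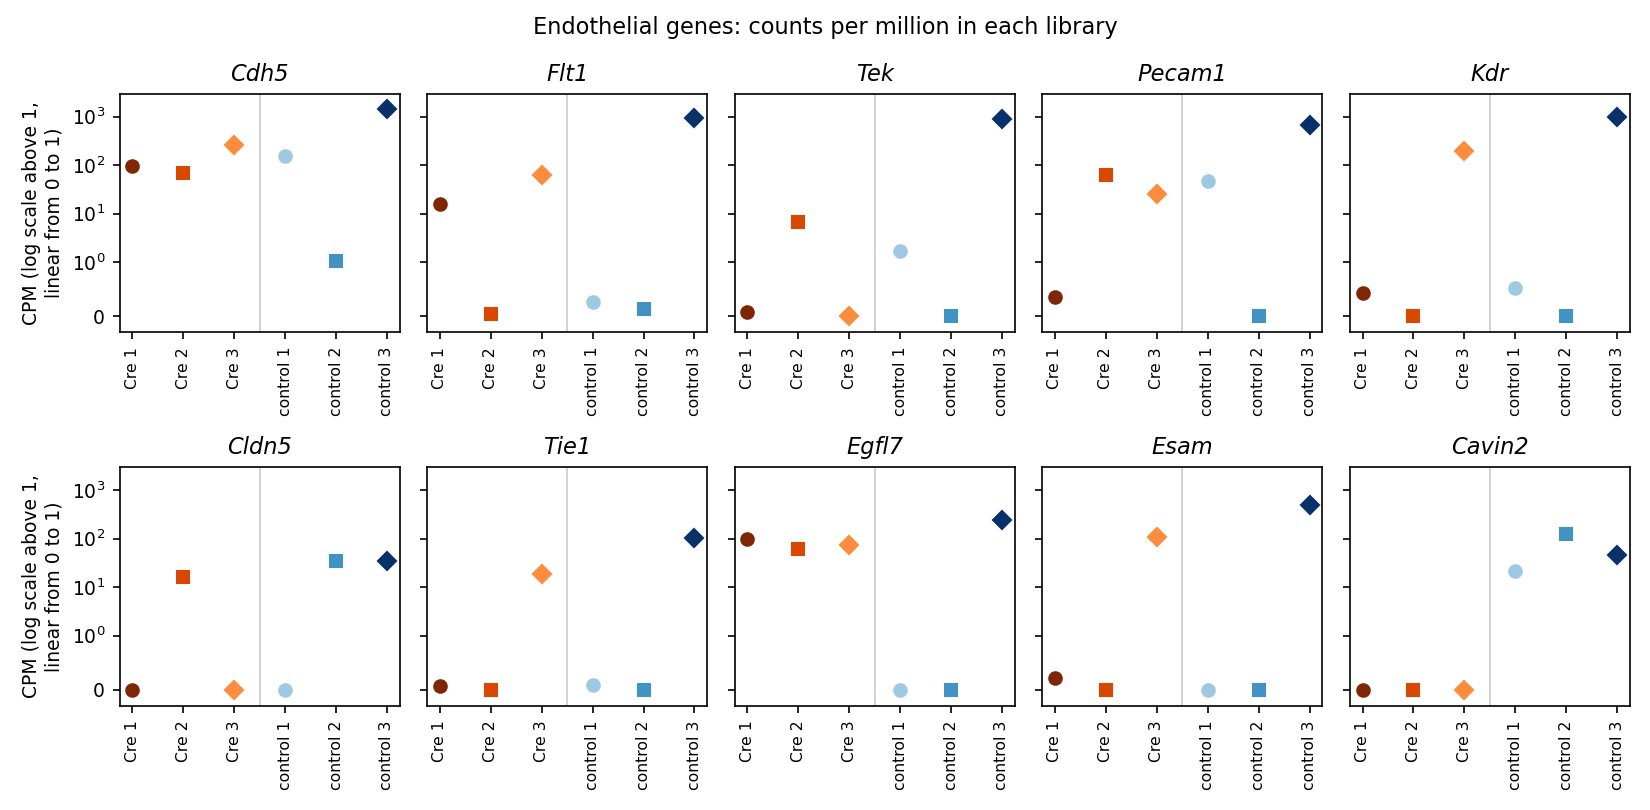
CPM of each of the 10 endothelial genes (vertical axis, log scale above 1 and linear from 0 to 1) in the 6 libraries, 1 point per library, Cre in orange and control in blue. Control 3 is the highest point for 8 genes, and Cavin2 is at 0 in the 3 Cre libraries.

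Among the junction genes, Cdh5 was present most widely. It lies on chromosome 8 (104101613 to 104144504, mm10), encodes VE-cadherin of endothelial adherens junctions, and had 1363, 1485 and 2114 counts in the Cre libraries, against 1811, 8 and 23749 in controls 1, 2 and 3. It was detected in every library except control 2, and in control 3 it ranked 54th of all genes by CPM. Its mean was 143 ± 103 CPM in Cre and 536 ± 796 CPM in control libraries (SD, n = 3 each). Without control 3 the other 2 controls averaged 78.5 CPM. Pecam1 (chromosome 11, 106654213 to 106715281), an adhesion molecule of endothelial and blood cells, had 5, 1322 and 211 counts in the Cre libraries, against 552, 0 and 10918 in the controls. The genotypes overlapped for both genes, with a low library on each side for Pecam1.

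Esam (chromosome 9, 37528089 to 37538319), an adhesion molecule of endothelial tight junctions, had 3, 0 and 857 counts in the Cre libraries, against 0, 0 and 7980 in the controls. It was thus detected in Cre 3 and control 3 alone. Cldn5 (chromosome 16, 18776847 to 18778262), the claudin that seals endothelial tight junctions at the blood-retina and blood-brain barriers, had 0, 343 and 0 counts in the Cre libraries, against 0, 260 and 560 in the controls. It did not follow the others. Its level in control 3, 34.2 CPM, lay within counting error of the 34.7 CPM in control 2 (ratio of control 3 to control 2 of 0.985, 95% interval 0.849 to 1.15).

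The VEGF receptors were high in control 3. Kdr (chromosome 5, 75932827 to 75979072), the main signalling receptor for VEGF-A, had 6, 0 and 1562 counts in the Cre libraries, against 6, 0 and 15968 in the controls. Flt1 (chromosome 5, 147561604 to 147726438), which binds VEGF-A as a decoy, had 218, 1 and 520 counts in the Cre libraries, against 3, 1 and 15258 in the controls. In CPM, control 3 held 975 of Kdr and 932 of Flt1, while the other 2 controls averaged 0.258 and 0.196. Both were higher in Cre 3, at 193 and 64.2 CPM, than in those 2 controls.

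The Tie receptors differed in which Cre library carried them. Tie1 (chromosome 4, 118471191 to 118489849), an orphan co-receptor of angiopoietin signalling, had 1, 0 and 148 counts in the Cre libraries, against 1, 0 and 1661 in the controls. Tek (chromosome 4, 94739086 to 94874976), which encodes the angiopoietin receptor Tie2, had 1, 143 and 0 counts in the Cre libraries, against 20, 0 and 14557 in the controls. Tek thus had no count in Cre 3, the library with the next highest sum, and its level in control 3 was 131 times that in Cre 2 (95% interval 111 to 156). A count of 0 in Cre 3 allows up to 3 counts, or 0.370 CPM.

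Egfl7 and Cavin2 had opposite patterns once control 3 is left aside. Egfl7 (chromosome 2, 26581083 to 26592682), a secreted factor of endothelial cells, had 1365, 1268 and 592 counts in the Cre libraries, against 0, 0 and 3971 in the controls. Its 3 Cre libraries, at 97.9, 60.0 and 73.1 CPM, all lay above controls 1 and 2 and below control 3, at 243 CPM. This was not particular to Egfl7. Igfbp7, Foxc1, Cavin3, Rgs5 and Apln, given below, also had counts in all 3 Cre libraries and 0 in controls 1 and 2. Those 2 controls had the fewest detected genes, 4258 and 4463, and the share of all genes with this pattern was not counted. Agpat2, which overlaps an Egfl7 exon on the opposite strand, had 922 counts in Cre 2 and at most 1 in every other library, and the strand setting of the counting is not given in the sources used here. Cavin2 (chromosome 1, 51289126 to 51302960), a coat protein of caveolae, the membrane pits abundant in endothelium, had 0 counts in all 3 Cre libraries, against 250, 929 and 746 in the controls. Over group totals Cavin2 was at least 781-fold lower in Cre, by a floor of 3 counts over the 3 Cre libraries together. That value covers counting alone and leaves out the spread between libraries, so it is no bound on a genotype difference. Every Cre library lay below every control library for Cavin2, as for 1.40% of the 11977 detected genes, and every Cre library lay above every control library for 0 of the 10 and 8% of all. Cavin2 was picked for this pattern, so nothing is read from that share.

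Compared per length as FPKM (counts scaled to gene length and library total), the order in control 3 was Cdh5 at 359, Esam at 263, Pecam1 at 200.1, Tek at 181, Egfl7 at 152, Kdr at 124, Flt1 at 66.9, Tie1 at 26.2, Cldn5 at 24.2 and Cavin2 at 14.9 FPKM. Of the neighbours in that order, the counting intervals of Tie1 (24.9 to 27.4) and Cldn5 (22.2 to 26.2) overlapped and the others did not. In Cre 3 the order was Cdh5 at 64.6, Esam at 57.1, Egfl7 at 45.9, Kdr at 24.6, Pecam1 at 7.82, Tie1 at 4.71 and Flt1 at 4.61 FPKM, with Tek, Cldn5 and Cavin2 at 0. The intervals of Tie1 (3.98 to 5.53) and Flt1 (4.22 to 5.02) overlapped there, so their order was not resolved. Cdh5 and Esam led in both libraries. In control 2 the order turned round, with Cavin2 at 40.6 and Cldn5 at 24.5 FPKM and the next gene, Cdh5, at 0.265.

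Cre 3 and control 3 had 7 of the genes in common, in unequal proportion. The ratio of control 3 to Cre 3 was 5.56 for Cdh5 (95% counting interval 5.32 to 5.81), 5.55 for Tie1 (4.69 to 6.61), 5.06 for Kdr (4.80 to 5.33) and 4.61 for Esam (4.29 to 4.95). These 4 lay nearest to each other, although the intervals of Cdh5 and Esam did not overlap. It was 3.32 for Egfl7 (3.04 to 3.62), 14.5 for Flt1 (13.3 to 15.9) and 25.6 for Pecam1 (22.3 to 29.5), each with an interval clear of those of the other 6. Kdr, Tie1 and Esam were detected in Cre 3 and control 3 and in no other library, as were 134 (1.12%) of the 11977 detected genes. The pair of libraries was noticed in these same counts.

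**Figure D2:**
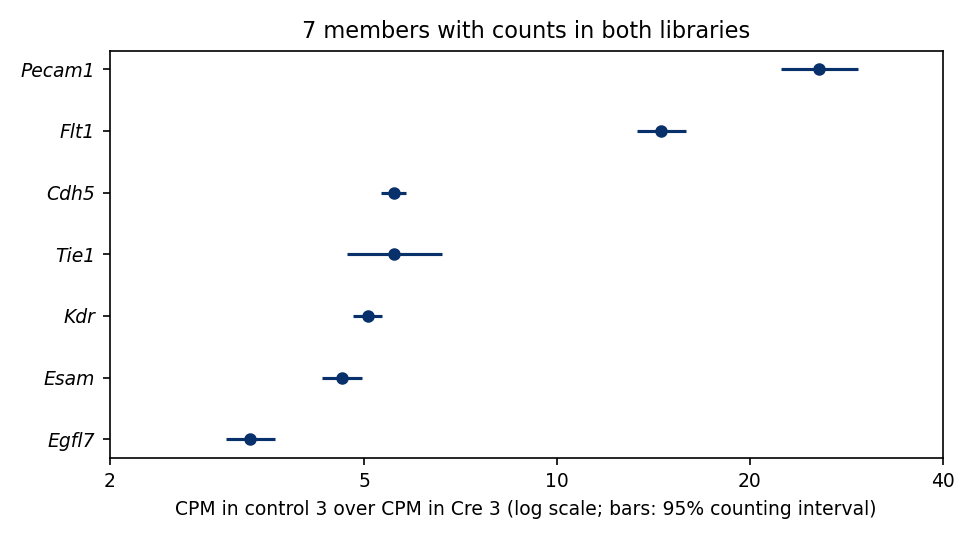
CPM in control 3 divided by CPM in Cre 3 (horizontal log axis) for the 7 endothelial genes with counts in both libraries, with 95% counting intervals. Cdh5, Tie1, Kdr and Esam lie between 4.61 and 5.56, Egfl7 lies below them, and Flt1 and Pecam1 lie above.

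Control 3 was the highest of the 6 libraries for 8 of the 10 genes, against 16.5% of the 11977 detected genes. It was at least 2 times the next library for the same 8, against 10.2% of all, and at least 10 times for Flt1, Tek and Pecam1, against 4.96%. The list was chosen with this library in view, so these counts describe it. Other endothelial genes, not in the list but also chosen with earlier results of these data known, were mostly highest there too. They are therefore no independent check. Of 31 such genes detected in some library, 23 were highest in control 3, and their sum was 2550, 1070 and 3210 CPM in Cre 1, 2 and 3, against 2658, 432 and 13599 in controls 1, 2 and 3. Cd93, a glycoprotein receptor of endothelium, had 3200, 2989 and 5200 counts in the Cre libraries, against 4626, 675 and 26914 in the controls. Tm4sf1, a membrane protein abundant in endothelial cells, had 110, 2454 and 4968, against 1, 0 and 23127. Ly6a, an antigen of endothelium and blood stem cells, had 821, 1065 and 1281, against 4023, 0 and 21355. Igfbp7, a secreted protein of vessels, broke the pattern. It had 11449, 5297 and 7740 counts in the Cre libraries, against 0, 0 and 13712 in the controls, and was highest in Cre 3 when scaled to depth.

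Transcription factors of endothelium were highest in control 3 for 12 of 20 detected genes. Klf2, which responds to blood flow, had 254, 2 and 787 counts in the Cre libraries, against 0, 0 and 13055 in the controls, and Sox18 had 1126, 4 and 174, against 17, 1340 and 8325. Ets1, of the ETS family, had 780, 10 and 1002, against 1202, 1 and 6752. Foxc1 had 1001, 2134 and 1499, against 0, 0 and 4353.

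The partners of the listed genes were similar in part. In the VEGF and angiopoietin system 8 of 15 detected genes were highest in control 3. Nrp1, a VEGF co-receptor that neurons also express, had 2240, 1607 and 1566 counts in the Cre libraries, against 4588, 1 and 10728 in the controls, and the arterial ligand Efnb2 had 1, 538 and 1449, against 0, 0 and 10541. Angpt2, the angiopoietin made by endothelial tip cells, had 2048, 1405 and 1825, against 3454, 0 and 2208, and was not highest in control 3. The tip cell peptide Apln had 2478, 215 and 3936 counts in the Cre libraries, against 0, 0 and 1410 in the controls.

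Among junction partners 7 of 13 were highest in control 3. Jam2, an adhesion molecule of tight junctions, had 2317, 1 and 0 counts in the Cre libraries, against 0, 0 and 30796 in the controls. Ctnnb1, the beta-catenin that binds cadherins in many cell types, had 8038, 8585 and 544, against 3385, 999 and 37462. Of the caveolae genes beside Cavin2, 4 of 6 were highest in control 3. Cav1, the main caveolin, had 2053, 6821 and 155 counts in the Cre libraries, against 0, 776 and 20471 in the controls, and Cav2 had 807, 5300 and 1166, against 1703, 1779 and 17090. Cavin1, the coat protein that caveolae require, had 155, 0 and 0, against 645, 292 and 3674, while Cavin3 had 1891, 1446 and 1148, against 0, 0 and 1488. The zero of Cavin2 in the Cre libraries was thus not shared by all caveolae genes. Cavin1 did lie lower in every Cre library, at 11.1, 0 and 0 CPM, than in any control, at 55.6, 39.0 and 224 CPM. The same held for 1.40% of the 11977 detected genes. For Cav1, Cav2 and Cavin3 the genotypes overlapped.

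Receptors and SMADs of TGF-beta and BMP signalling that endothelium uses were mixed, with 4 of 12 detected genes highest in control 3. Tgfbr2, the type II receptor that pairs with Tgfbr1, had 3741, 8 and 0 counts in the Cre libraries, against 1, 0 and 14192 in the controls. Smad1 had 1684, 1728 and 1485, against 5, 0 and 8608, and the BMP receptor Bmpr2 had 1972, 7161 and 1815, against 3780, 2040 and 100. Tgfbr1 itself reached its highest levels, 97.9 and 93.9 CPM, in Cre 3 and control 3, the 2 libraries with the highest sums of the 10 endothelial genes. In the other 4 libraries it lay between 0 and 3.30 CPM. The part of vascular cells in that level was not tested.

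Transport genes of the vascular barrier did not sum highest in control 3. Their sum was 1486, 1182 and 1921 CPM in Cre 1, 2 and 3, against 2138, 1725 and 1087 in controls 1, 2 and 3, and 3 of 17 detected genes were highest in control 3, near the 16.5% of all genes. The most abundant genes of this list, the amino acid transporter subunit Slc3a2, the transferrin receptor Tfrc, the lactate transporter Slc16a1 and basigin (Bsg), are also expressed by neurons or many other cells. Without these 4, the sum was 461, 342 and 764 CPM in the Cre libraries, against 226, 155 and 507 in the controls. Of the 19 transport genes in the table, 12, 10 and 10 were detected in the Cre libraries, against 9, 5 and 13 in the controls. Slc16a1 had 2667, 1558 and 1510 counts in the Cre libraries, against 4314, 0 and 0 in the controls. Genes of the vascular basement membrane, by contrast, did sum highest in control 3. Their sum was 2479, 1343 and 2245 CPM in the Cre libraries, against 1299, 112 and 3061 in the controls. Of 12 detected genes, 3 were highest in control 3. Sparc and Col4a2 were highest there, at 981 and 626 CPM, and Fn1 and Col4a1 in Cre 1, at 963 and 838 CPM. Col4a1, a collagen IV chain, had 11676, 9543 and 4376 counts in the Cre libraries, against 780, 145 and 7100 in the controls.

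Markers of mural cells, the pericytes and smooth muscle around vessels, did not follow the endothelial genes. Their sum was 519, 262 and 817 CPM in Cre 1, 2 and 3, against 0.517, 546 and 491 in controls 1, 2 and 3, and 2 of 11 detected genes were highest in control 3. Rgs5, a pericyte marker, had 2773, 678 and 903 counts in the Cre libraries, against 0, 0 and 3034 in the controls. Acta2, the smooth muscle actin, had 1, 231 and 0, against 0, 4089 and 2885. Abcc9, a potassium channel subunit of pericytes, had 1, 0 and 2804, against 0, 0 and 7. Rgs4 had 2176, 4080 and 1931 counts in the Cre libraries, against 4, 0 and 0 in the controls. It gave 156, 193 and 238 CPM of the mural sums in Cre 1, 2 and 3, and those sums were not taken without it.

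Ganglion cell markers ran the other way in control 3. Summed over 21 markers they reached 7361, 7238 and 4183 CPM in Cre 1, 2 and 3, against 4790, 6391 and 1168 in controls 1, 2 and 3. The number of the 21 at 0 was 4, 6 and 6 in the Cre libraries, against 8, 8 and 10 in the controls, with Slc17a6 among the 10 in control 3. Of the markers, 0 of 18 detected were highest in control 3. Sncg, a synuclein of ganglion cells, and Gap43, of growth cones, were lowest in control 3, at 209 and 237 CPM, and Nefl, the light neurofilament, was at 5.19 CPM there, where the other libraries held 324 to 1517 CPM. Of Müller glia genes, Vim, an intermediate filament gene that endothelial cells also express, had 11382, 13651 and 14198 counts in the Cre libraries, against 9734, 10549 and 96054 in the controls, and made up most of that list's 6282 CPM in control 3. Apoe, an apolipoprotein of Müller glia and macrophages, had 1, 19 and 2919 counts in the Cre libraries, against 0, 0 and 3651 in the controls, so that it too was high in Cre 3 and control 3. The glial transporter Slc1a3 had 1, 0 and 290, against 0, 1842 and 0. Glul, glutamine synthetase, was present in every library and lowest in control 3, at 39.0 CPM. Blood markers were detected at 1 of 8 in control 3, where S100a8 of neutrophils had 2086 counts, and the sum was 773 CPM in Cre 1. The haemoglobin gene Hbb-bs had 7 counts in Cre 1 and 0 elsewhere. Microglia and macrophage markers were at 134 CPM in control 3, nearly all from Cd68, with 11 of 13 at 0. Astrocyte and bipolar cell markers summed to 0.733 and 0.305 CPM in control 3, where the other libraries held 91.3 to 842 and 84.4 to 802 CPM. Outside control 2, most of those sums came from the broadly expressed Cd44 and Igf1 and from Prkca, all at 0 in control 3. Without Cd44 and Igf1 the astrocyte sum was under 1 CPM in every library but control 2, and without Prkca the bipolar sum of 0.305 CPM in control 3 lay above that of Cre 3, at 0.123 CPM. Fibroblast and meningeal markers were highest there, at 451 CPM, with 266 CPM from Foxc1, which is also counted among the endothelial transcription factors above, and 184 CPM from Col1a2, a collagen I chain. Without Foxc1 that sum was 82.8, 25.8 and 11.1 CPM in the Cre libraries, against 0, 0 and 185 in the controls. Other markers of this list went the other way. Col3a1 had 985, 544 and 86 counts in the Cre libraries, against 0, 0 and 2 in the controls. Dcn had 139 counts in Cre 1 and 0 elsewhere. Of the fibroblast and meningeal markers 4 were detected in Cre 1 and 2 in control 3. Amacrine and photoreceptor markers, at 468 and 7.15 CPM in control 3, lay within the range of the other libraries. The part of these other cell types in the endothelial values was not tested.

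**Figure D3:**
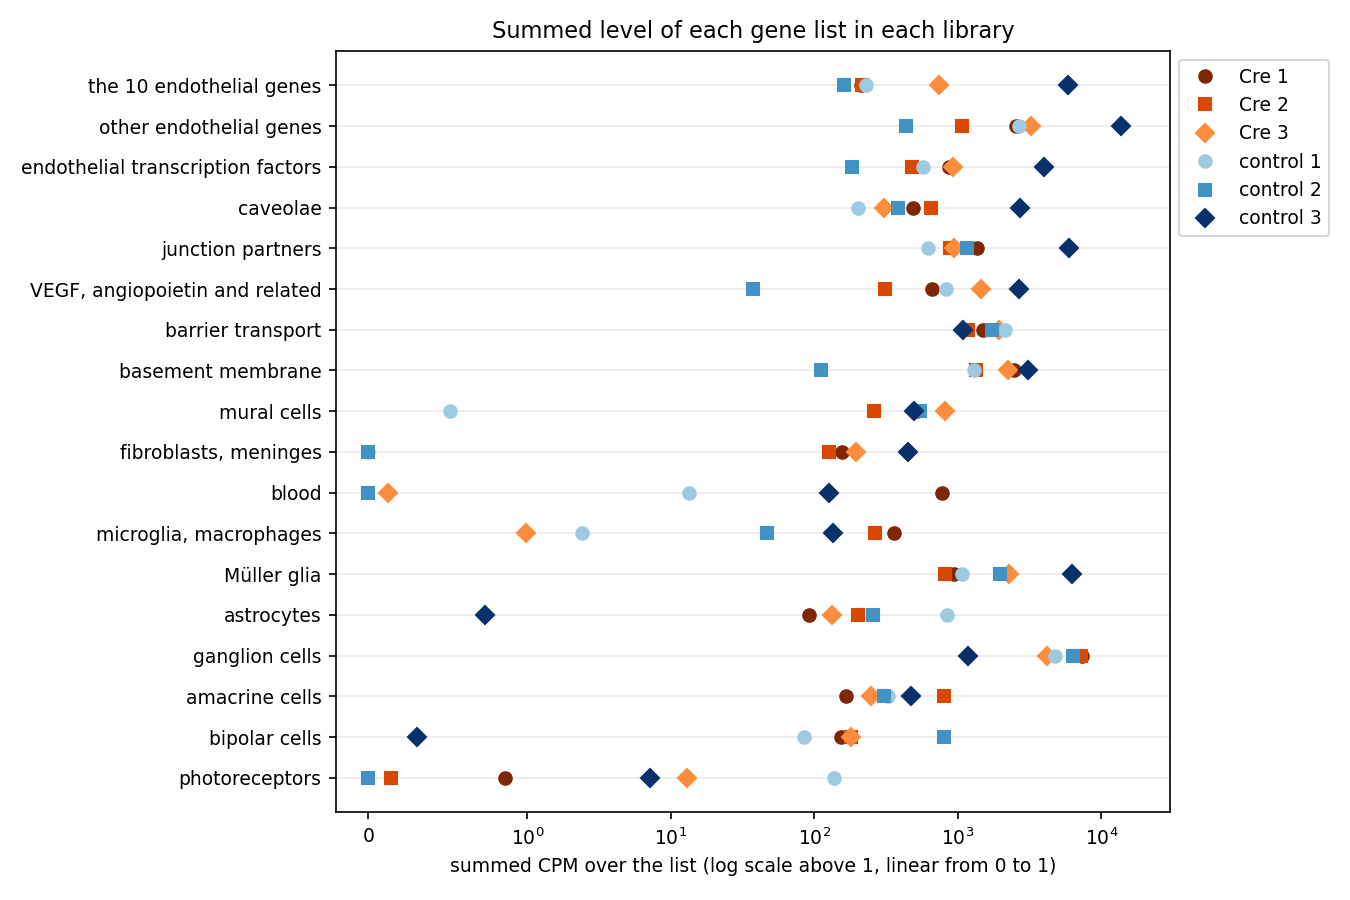
Summed CPM of each gene list (horizontal axis, log scale above 1 and linear from 0 to 1) in the 6 libraries, Cre in orange and control in blue. Control 3 is the highest library for the 10 endothelial genes, at 5825 CPM, and the lowest for ganglion cell markers, at 1168 CPM.

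Genes whose shares over the 6 libraries were nearest to the mean of the 10 were sought among 8236 genes with at least 500 counts in all, by the sum of absolute differences of the 6 shares of CPM. The mean shares were 2.72%, 4.37% and 8.74% in Cre 1, 2 and 3, against 2.52%, 10.6% and 71.1% in controls 1, 2 and 3. The 10 nearest genes were Itgb1, Crip1, Adam10, Adamts1, Otud4, Med13l, Plk2, Smg1, Cdkn1b and Arf2, with distances of 0.134 to 0.251. None of these 10 is in the lists of other endothelial genes, endothelial transcription factors, barrier transport or caveolae. Of the 100 nearest 6 were, and of all 8236 genes compared 69 are in those lists. The 10 genes were selected for control 3, which dominates the mean shares. Those lists were chosen with earlier results of these data known, so nothing is read from the difference in share. The integrin subunit Itgb1, a widely expressed matrix receptor, had 845, 378 and 1089 counts in the Cre libraries, against 527, 1485 and 25795 in the controls. Adamts1, a secreted protease, had 1388, 1355 and 482, against 58, 1720 and 16573. The mean profile is a mixture: its share in control 2 comes from Cldn5 and Cavin2, which hold 40.8% and 64.9% of their CPM there, while the other 8 hold at most 0.0525%. Nearness to it is therefore no likeness to any single one of the 10 genes. Among the 10, Cdh5 lay nearest to the mean of the other 9, at 0.254, and Cavin2 farthest, at 1.40, with Cldn5 next, at 0.998.

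The comparison of genotypes is given over the whole table, with no call read for the listed genes. The edgeR quasi-likelihood test called 0 of 5727 tested genes (0%) at a Benjamini-Hochberg adjusted p under 0.05. Its biological coefficient of variation, the spread between replicates relative to the mean beyond counting error, was 2.04. With so wide a spread, a count of 0 does not show that the genotypes are alike. At an unadjusted p under 0.05 edgeR had 281 genes (4.91%). At an adjusted p under 0.05 limma voom called 88 of 5727 (1.54%). DESeq2 called 840 of the 7082 genes to which it gave an adjusted p (11.9%). The low-count filter kept 7 of the 10 and removed Kdr, Tie1 and Esam, each detected in 2 libraries. The fitted log2 fold changes of Cre against control, given with their SE as a description, were -1.86 ± 1.52 for Cdh5, -3.50 ± 2.96 for Flt1, -6.93 ± 3.72 for Tek, -2.98 ± 3.01 for Pecam1, -1.91 ± 3.28 for Cldn5 and 0.08 ± 3.15 for Egfl7. That of Cavin2, -12.53 ± 4.69, depends on the prior count, since its Cre counts are 0.

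The signs of 4 of these values turned on control 3. Without it, the log2 fold change was 0.64 ± 2.88 for Cdh5, 6.92 ± 5.26 for Flt1, 1.17 ± 3.20 for Tek and 0.06 ± 3.78 for Pecam1. All 4 thus turned from negative to positive, although those of Cdh5, Tek and Pecam1 lay within 1 SE of 0. The Flt1 value rests on 3 and 1 counts in controls 1 and 2. For Egfl7 the value was 12.95 ± 6.30, which depends on the prior count since controls 1 and 2 had 0. Cldn5 and Cavin2 stayed negative, at -1.39 ± 3.65 and -12.58 ± 5.26. Without Cre 2, the value was -10.87 ± 6.29 for Cldn5 and -12.36 ± 5.06 for Tek. Both depend on the prior count, since the remaining Cre libraries had 0 counts of Cldn5 and 1 count of Tek. Other endothelial genes, not in the list but also chosen with earlier results known, were mostly negative with all libraries. Of 19 tested, 4 had a positive value and 15 a negative one, with a median of -1.08 against 0.14 for all tested genes. Without control 3 there were 10 positive and 9 negative, with a median of 0.24 against 0.56 for all tested genes, and 4 of the 19 then had a group at 0. The median was also 0.24 with those 4 at their bound. EdgeR called 4 of 7347 genes (0.0544%) without control 3, and 1 of these 4 was Igfbp7, higher in Cre, whose counts in controls 1 and 2 were 0.

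**Figure D4:**
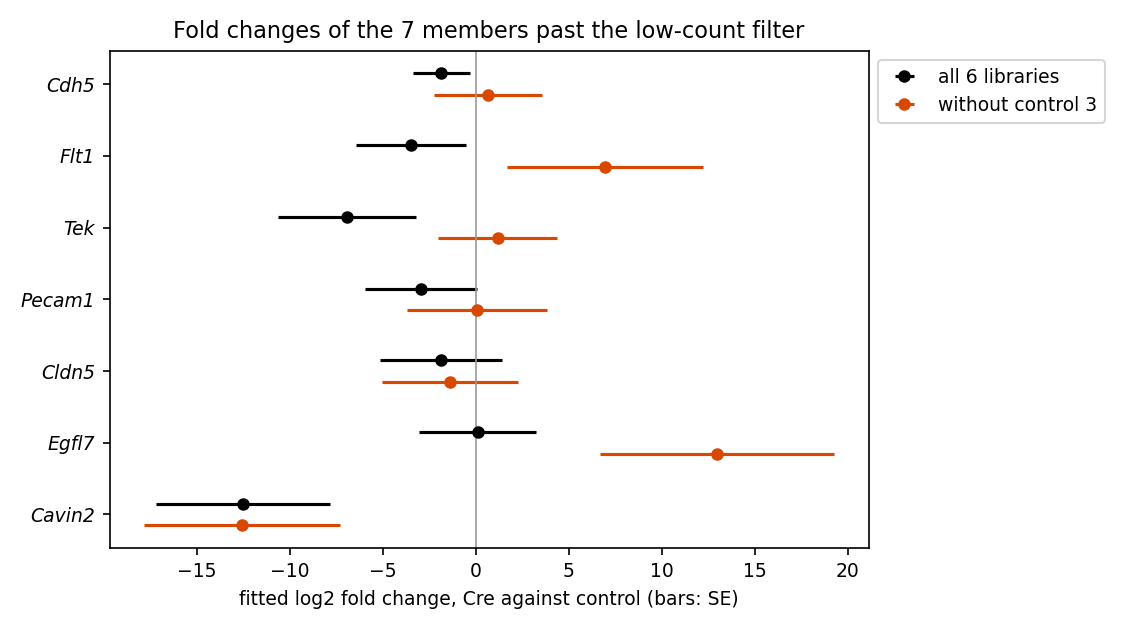
Fitted log2 fold change of Cre against control (horizontal axis, bars are SE) for the 7 endothelial genes past the low-count filter, with all 6 libraries in black and without control 3 in orange. Cdh5, Flt1, Tek and Pecam1 lie below 0 with all libraries and above 0 without control 3, while Cavin2 stays near -12.5.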

How the data were processed

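Per the labels' protocols, total RNA came from the RNeasy Micro kit, and the VAHTS Universal V6 kit turned 1 ng of it into each library. Per the submitters' processing notes, the tools were fastp, HISAT2, HTSeq, R and DESeq2, and the genome build was mm10. Their roles, the annotation and the strand setting are not stated there. The authors deposited a table of raw counts and a table of FPKM over the same 22413 genes, each with 1 column per sample and no other columns. The deposited FPKM carry no scaling beyond 1 length per gene and the library total.

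CPM are counts over the column total. The genotype comparison used edgeR 4.0.16 in R 4.3.3, with filterByExpr, TMM scaling, a robust quasi-likelihood fit on genotype alone and an adjusted p under 0.05. The fit was also run on simulated counts, but the pass mark there was set at a spread far below that of these libraries. That run is therefore no measure of its power here. SE is the log2 fold change over the square root of F. DESeq2 1.42.0 and limma 3.58.1 (voom, and log2 of FPKM plus a pseudocount of 1 or 0.1) were alternatives. DESeq2, run with no prior filter, gave no p for 6 of the 10 listed genes, which were left missing. Intervals are 95% exact Poisson for levels and exact binomial for ratios, and floors are 3 counts. These intervals and floors treat reads as independent and leave out the spread between libraries. PCR reads lacking molecular identifiers are not independent, so the intervals may be too narrow even for counting error. RefSeq GRCm38.p6 (mm10) gave the gene coordinates, and GENCODE M21 the overlapping exons. The listed genes and the 18 other gene lists were chosen with earlier results of these data known. Of 285 listed symbols, 259 were in the table. Named genes were Tgfbr1, Slc17a6, the 10 listed genes, the up to 4 most abundant genes of each other list, of which not all are printed, and the 10 of nearest pattern with predicted genes left out.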

Additional observations from a re-analysis of the deposited data

How the results depend on the processing

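The count of 0 genes called by edgeR was also 0 with DESeq2's size factors, library totals only, other low-count filters, limma on log2 FPKM and a replicate block, and was 840 with DESeq2 and 88 with limma voom. With 1 library left out it ran from 0 to 7, with 4 without control 3 and 7 without control 1. The labels do not state whether same-numbered Cre and control samples belong together. Deviations of same-numbered libraries correlated at -0.02, 0.03 and -0.01, and not every library correlated best with its own number. All pairs of a Cre and a control library lay between -0.05 and 0.06, so these values cannot decide on a pairing. With the replicate block edgeR called 0 genes. The ratio of control 3 to the next library, 7.86 on summed CPM, was 8.57 with DESeq2's size factors, 6.74 on FPKM, 9.11 without Cdh5 and 5.30 as the median of the genes' own ratios. At 1 count or more, 8 of the 10 genes were detected in Cre 1, 7 in control 1 and 4 in control 2, and at 3 counts or more 6 in Cre 1. Of all genes, 594 were highest in control 3 by at least 10 times, 1218 by at least 2 times and 1981 by any excess, and of the 10 listed genes 3, 8 and 8. Of 102 fitted fold changes of listed genes under alternatives, 21 lay more than 1 SE of the all-library value from it and 12 changed sign, 4 of them without control 3, 5 of Egfl7, whose main value is near 0, and 3 of Cdh5, to 0.25 and 0.81 on FPKM and 0.13 with the replicate block. Over all genes tested the median of these values was 0.14 with TMM, -0.25 with DESeq2's size factors, 0.03 with library totals only and 1.58 with voom. A count of 0 allows up to 0.142 to 0.401 CPM per library, so 0 counts do not show absence.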
